A study of Homo sapiens with 9 samples.

Results

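The SLAM-Seq libraries were examined for 9 genes of the NRF2 pathway and its antioxidant program, taken by gene symbol from the 26616 genes of the deposited table. The 9 genes were NFE2L2, KEAP1, HMOX1, NQO1, GCLC, GCLM, TXNRD1, SRXN1 and FTL, and each was represented by 1 distinct 3′ interval. The cells were MCF10A, a non-transformed human mammary epithelial line, in which JUN had been knocked out by CRISPR-Cas9, and knockout lines were isolated as single-cell clones. All groups carried a JUN protein fused to an auxin-inducible degron (JUN-AID) and the auxin receptor subunit TIR1. The first group (no 4sU, 3 libraries) was an unlabelled control, and the labels do not say whether it received DMSO. The second group (DMSO 4sU, 3 libraries) received DMSO and then 100 µM 4-thiouridine (4sU) for 1 h. The third group (IAA 4sU) received 100 µM indole-3-acetic acid (IAA), which triggers degradation of the JUN fusion protein, during 1 h before the same 4sU pulse. The 3 deposited IAA columns held the same values in all 56868 rows and were therefore counted as 1 library.

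NRF2, encoded by NFE2L2, is a transcription factor that binds antioxidant response elements (AREs) as a dimer with small MAF proteins. In unstressed cells KEAP1 holds NRF2 in the cytoplasm and presents it to a CUL3 ubiquitin ligase for degradation, and oxidants or electrophiles modify KEAP1 cysteines so that NRF2 escapes. Its targets make glutathione, reduce thioredoxin and quinones, break down heme and store iron. The regulation lies largely in the stability of the protein, which RNA libraries do not measure.

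SLAM-Seq reads 2 quantities per gene. Transcripts synthesised in the presence of 4sU carry it in place of some uridines, and alkylated 4sU appears as C in the reads. The T>C conversion rate is the percentage of T bases that were sequenced as C, and a gene whose mRNA was largely made within the pulse has a high rate. The CPM value is the 3′-end read count of a gene scaled to the size of the library and follows total mRNA. Total mRNA per cell and the number of cells behind a library cannot be told apart from CPM. Library totals ranged from 18997637 to 24014195 reads. Over the 7310 genes with at least 200 reads on average, the median conversion rate was from 0.0557% to 0.0579% in the libraries without 4sU, 0.239%, 0.182% and 0.181% in DMSO 4sU replicates 1, 2 and 3, and 0.222% in the IAA library. All 9 epithelial marker genes examined were at 1 CPM or more in every library, and their summed level was 1208 to 1419 CPM without 4sU, 1558 to 1581 CPM in the DMSO 4sU group and 1553 CPM after IAA. The leukocyte, endothelial and fibroblast lists summed to at most 9.92 CPM in any library. JUN itself (chromosome 1, 59242517 to 59249720 in GRCh37) was at 48.1, 57.6 and 45.0 CPM without 4sU, at 30.2, 20.3 and 25.6 CPM in the DMSO 4sU group, and at 62.9 CPM after IAA. The degron acts on the protein, so these values do not check the depletion. The JUN interval matched in length the 1287-base 3′ UTR segment annotated for the gene. Whether the JUN-AID construct carries this segment is not given in the sources used here. The reads may thus come from the knocked-out locus, which was not tested. JUN mRNA was lower with 4sU than without by limma on log2(CPM + 1) (log2 difference -1.002, SE 0.19, adjusted p = 0.030), but the call was lost when the replicate number was a block (adjusted p = 0.052), with no filter on low CPM (0.061), without replicate 2 (0.39) and without replicate 3 (0.40).

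The promoter sequences of the genes were searched for the ARE core, because it is the element through which NRF2 acts and because it resembles the AP-1 site bound by JUN. The RefSeq table (GRCh38.p14) gave 11 windows, from 250 bases before to 50 bases after a transcript start, for 8 of the 9 genes. HMOX1 had no entry. The ARE core TGACNNNGC, on either strand, was in 4 of the 11 windows, against 13.3% of 35116 windows of the same length over all genes. These 4 windows include both windows of TXNRD1. The AP-1 site TGANTCA was in 0 of the 11 windows, against 7.71% of all. At that share, so few windows give no result about these genes. A match of the ARE core TGACNNNGC and of the AP-1 site TGANTCA can overlap, and no match says only that the letters are not in this window. The windows with most matches of KEAP1, GCLM and TXNRD1 are shown 5′ to 3′ in the direction of transcription, with the bases of the ARE core or its reverse complement in capitals. They are shown because these are the 3 genes whose windows held the element.
KEAP1 promoter window (chr19:10502722-10503021, minus strand, GRCh38.p14): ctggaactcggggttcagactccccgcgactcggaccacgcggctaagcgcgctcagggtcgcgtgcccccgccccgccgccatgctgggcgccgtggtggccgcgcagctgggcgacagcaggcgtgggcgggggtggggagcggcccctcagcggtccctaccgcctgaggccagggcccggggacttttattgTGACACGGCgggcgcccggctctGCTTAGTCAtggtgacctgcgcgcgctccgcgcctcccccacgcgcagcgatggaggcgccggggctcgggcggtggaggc
GCLM promoter window (chr1:93909381-93909680, minus strand, GRCh38.p14): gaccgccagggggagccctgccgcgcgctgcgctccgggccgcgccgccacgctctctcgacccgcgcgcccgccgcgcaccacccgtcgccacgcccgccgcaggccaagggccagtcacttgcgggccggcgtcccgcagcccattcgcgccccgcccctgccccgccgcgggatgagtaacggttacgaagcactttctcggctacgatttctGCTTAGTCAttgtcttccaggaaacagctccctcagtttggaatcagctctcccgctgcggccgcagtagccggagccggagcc
TXNRD1 promoter window (chr12:104215529-104215828, plus strand, GRCh38.p14): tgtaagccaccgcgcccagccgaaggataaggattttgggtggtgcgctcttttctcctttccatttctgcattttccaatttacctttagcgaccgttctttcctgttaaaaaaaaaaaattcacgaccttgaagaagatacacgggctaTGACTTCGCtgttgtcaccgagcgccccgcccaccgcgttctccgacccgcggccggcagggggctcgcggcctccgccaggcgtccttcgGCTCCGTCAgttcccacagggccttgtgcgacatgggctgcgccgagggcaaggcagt
KEAP1 and GCLM share the letters GCTTAGTCA, at positions 220 to 228 and 217 to 225 of their windows counted from the 5′ end. The TXNRD1 window holds TGACTTCGC at positions 152 to 160 and GCTCCGTCA at positions 243 to 251.

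The effect of the 4sU pulse was examined first, because a gene can be compared in its newly made share only where the label is detected. All 8 genes with enough reads had a higher conversion rate with DMSO and 4sU than without 4sU, and in each of the 8 the 3 labelled libraries lay above the 3 unlabelled ones. Labelling differed widely between them. NFE2L2, KEAP1 and TXNRD1 had mean rates from 0.493% to 0.572%, and NQO1 had 0.118%. By limma on log2(rate + 0.0005) with Benjamini-Hochberg adjustment over all genes, 8 of 8 passed, all of them higher with 4sU, against 61.3% of the 7302 genes tested that were higher and 61.4% that passed in either direction (0.0685% were lower). Complete separation of the 3 labelled from the 3 unlabelled libraries was seen in 70.8% of these genes. The median log2 difference was 1.41 over the 8 genes and 1.16 over all genes tested.

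**Figure D1:**
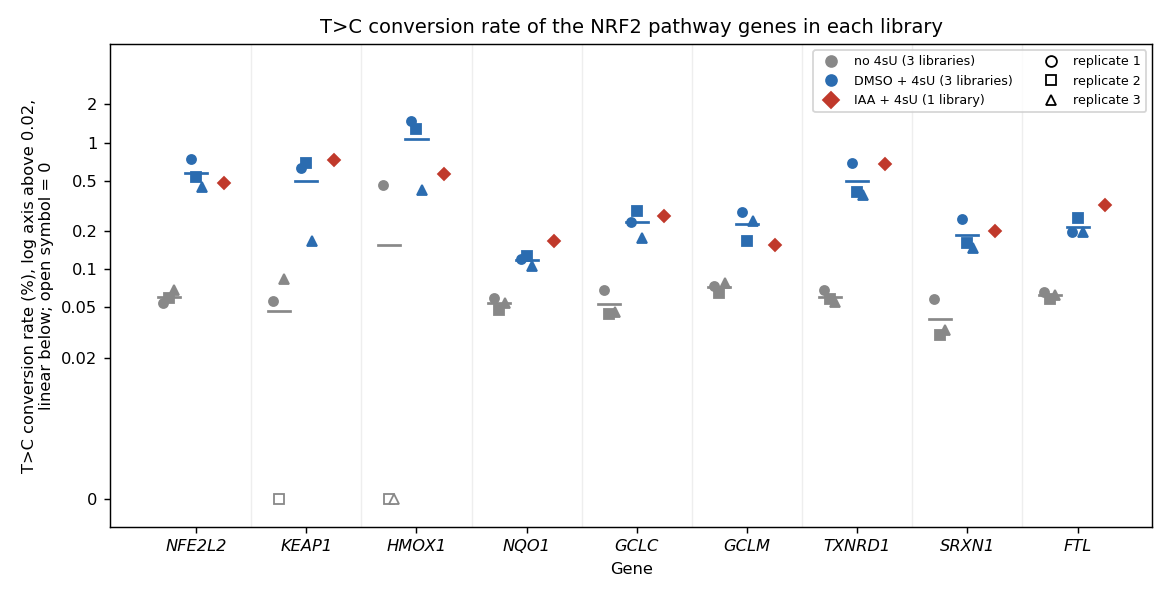
T>C conversion rate (percent, log axis above 0.02% and linear below it, open symbols at 0) of the 9 genes in each of 7 libraries, with bars at the means of the groups of 3. For NFE2L2, KEAP1, TXNRD1, GCLC, GCLM, SRXN1, FTL and NQO1 the blue labelled points lie above the grey unlabelled points, and NQO1 has the lowest labelled points, between 0.107% and 0.127%.

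The regulators are described first. NFE2L2 (chromosome 2, 178083395 to 178257484, minus strand, GRCh37) had rates of 0.0546%, 0.0594% and 0.0682% without 4sU and of 0.737%, 0.534% and 0.446% with DMSO and 4sU. The mean with 4sU was 0.572% ± 0.149 (SD, n = 3), a higher rate than in 87.4% of genes with at least 200 reads. The log2 difference was 2.47 (SE 0.29, limma adjusted p = 0.00092). KEAP1 (chromosome 19, 10596801 to 10614234, minus strand), the substrate adaptor that brings NRF2 to the ligase, had rates of 0.0566%, 0 and 0.0836% without 4sU and of 0.629%, 0.684% and 0.166% with it. The labelled library of replicate 3 was thus far below those of replicates 1 and 2, and its mean of 0.493% ± 0.284 (SD, n = 3) was the least precise among the 8 genes. KEAP1 rested on 251 to 588 reads per library, and its log2 difference of 2.41 (SE 0.58, limma adjusted p = 0.012) had an adjusted p of 0.082 without replicate 1 and 0.068 without replicate 2.

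TXNRD1 (chromosome 12, 104609557 to 104744085, plus strand), the cytosolic selenoenzyme that reduces thioredoxin with NADPH, was labelled as strongly as the regulators. Its rates were 0.0681%, 0.0587% and 0.0554% without 4sU and 0.685%, 0.411% and 0.383% with DMSO and 4sU (log2 difference 2.25, SE 0.30, limma adjusted p = 0.0015). SRXN1 (chromosome 20, 627259 to 633844, minus strand), the sulfiredoxin that repairs overoxidised peroxiredoxins, had lower rates, of 0.251%, 0.162% and 0.147% with 4sU against 0.0586%, 0.0304% and 0.0332% without. In the thioredoxin branch the labelled libraries of TXNRD1 and SRXN1 did not overlap in rate, the lowest of TXNRD1 being 0.383% and the highest of SRXN1 0.251%.

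The subunits of glutamate-cysteine ligase, the rate-limiting enzyme of glutathione synthesis, had similar rates. GCLC (chromosome 6, 53362139 to 53481768, minus strand), the catalytic subunit, was at 0.236%, 0.290% and 0.178% with 4sU and at 0.0682%, 0.0447% and 0.0461% without. GCLM (chromosome 1, 94350755 to 94375012, minus strand), the modifier subunit, was at 0.282%, 0.167% and 0.240% with 4sU and at 0.0740%, 0.0651% and 0.0778% without. Their labelled libraries overlapped, with means of 0.235% ± 0.0559 and 0.229% ± 0.0579 (SD, n = 3 each). The GCLM log2 difference of 1.17 (SE 0.26, limma adjusted p = 0.0086) had an adjusted p of 0.059 without replicate 3.

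FTL (chromosome 19, 49468566 to 49470136, plus strand), the light chain of the iron store ferritin, had rates of 0.197%, 0.255% and 0.196% with 4sU and of 0.0666%, 0.0580% and 0.0629% without. Its interval of 147 bases is short, FTL has processed pseudogenes of similar sequence, and how the authors' counting placed shared reads is not given in the sources used here, so its reads are uncertain. NQO1 (chromosome 16, 69740899 to 69760571, minus strand), the quinone reductase commonly used as a marker of NRF2 activity, was labelled least. Its rates were 0.120%, 0.127% and 0.107% with 4sU against 0.0589%, 0.0481% and 0.0545% without, a log2 difference of 0.69 (SE 0.20, limma adjusted p = 0.023). NQO1 was also among the most deeply read of the 9 genes, with 4764 to 7647 reads per library, yet its call was lost without each replicate in turn (adjusted p = 0.075, 0.13 and 0.092 without replicates 1, 2 and 3).

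HMOX1 (chromosome 22, 35776354 to 35790207, plus strand), the inducible heme oxygenase, was under the minimum of 200 reads and was not tested in the rate. With 40 to 129 reads per library, its rate was listed at 0.464%, 0 and 0 without 4sU and at 1.48%, 1.29% and 0.425% with DMSO and 4sU. The highest unlabelled library lay above the lowest labelled one. In order of the mean labelled rate, HMOX1 was followed by NFE2L2, KEAP1, TXNRD1, GCLC, GCLM, FTL, SRXN1 and NQO1. Neighbours in this order overlapped in their 3 labelled libraries except at 2 steps, between TXNRD1 and GCLC (0.383% and 0.290% at the facing ends) and between SRXN1 and NQO1 (0.147% and 0.127%). As a share of genes with at least 200 reads, 84.1% had a lower mean rate than TXNRD1, 55.8% than GCLC, 51.1% than FTL, 42.8% than SRXN1 and 17.2% than NQO1. JUN was above 98.7% of genes.

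Total mRNA was compared between the same 6 libraries. None of the 9 genes passed the threshold by limma on log2(CPM + 1), against 1.67% of 11440 genes tested, all of which were lower with 4sU. At an unadjusted p under 0.05 the count was also 0 of 9, against 2.85% of genes that were higher and 7.51% that were lower, and edgeR, DESeq2 and the replicate block each called 0. The value was higher with 4sU in 4 genes and lower in 5, with a median log2 difference of -0.04 against 0.04 over all genes. With TMM library sizes 0 of the 9 genes separated the groups, against 17.9% of all genes.

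**Figure D2:**
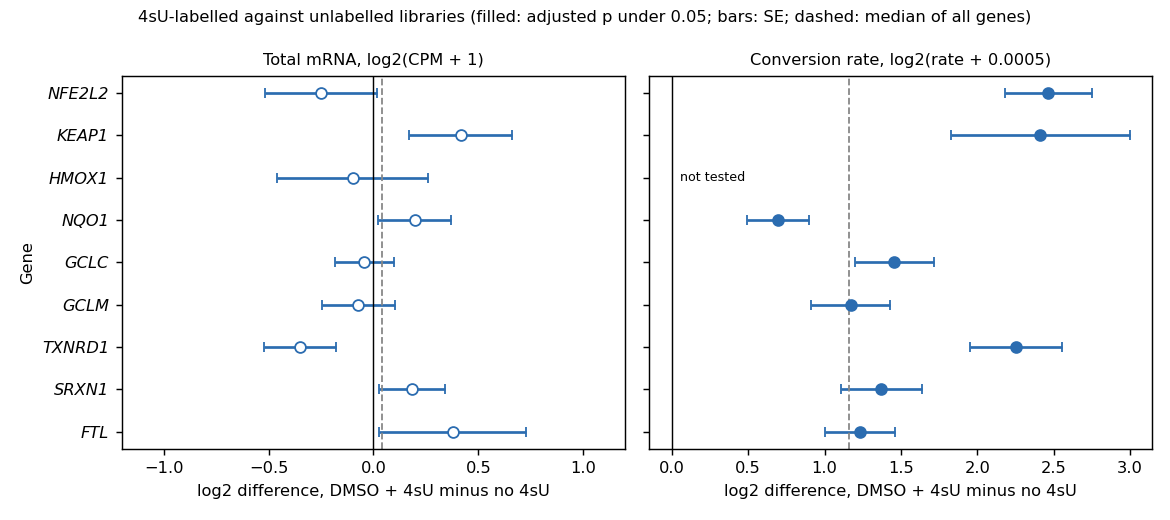
Log2 difference between the DMSO 4sU and the no 4sU libraries (3 each) in total mRNA (left) and in the conversion rate (right), with standard errors, filled where the adjusted p was under 0.05. No gene is filled in total mRNA, and all 8 tested genes are filled in the rate, from 0.69 for NQO1 to 2.47 for NFE2L2; the dashed lines mark the medians over all genes, 0.04 and 1.16.

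NFE2L2 mRNA was at 53.2, 91.2 and 100.1 CPM without 4sU and at 55.5, 71.8 and 77.4 CPM with DMSO and 4sU, a log2 difference of -0.25 (SE 0.27, limma adjusted p = 0.81). Replicate 1 was the lowest library in each group. KEAP1 was at 12.4, 22.2 and 22.9 CPM without 4sU and at 27.3, 24.5 and 25.1 CPM with it. The deposited KEAP1 values of the groups do not overlap, but after TMM scaling they do, and the log2 difference of 0.42 (SE 0.25) had a limma adjusted p of 0.63. Most of the KEAP1 difference lay in replicate number 1, where it was 1.11, against 0.07 and 0.04 in numbers 2 and 3.

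TXNRD1 had the lowest p of the 9 genes. It was at 125.6, 144.0 and 155.7 CPM without 4sU and at 100.0, 115.8 and 125.7 CPM with 4sU. Within replicate numbers 1, 2 and 3 its log2 difference was -0.29, -0.38 and -0.40, so that it was lower with 4sU in 3 of 3 pairs, but it did not pass (log2 difference -0.35, SE 0.17, limma adjusted p = 0.53, and 0.24 with the replicate block). After TMM scaling, 3 of the 9 genes had a lower value with 4sU in all 3 pairs (TXNRD1, GCLC and GCLM). A higher value in all 3 pairs was seen in 2 genes (KEAP1 and FTL). The GCLC difference in number 3 was only -0.0047, and that of GCLM in number 2 only -0.00019. In deposited CPM these 2 pairs were higher with 4sU (GCLC 38.0 without and 40.5 with, GCLM 108 without and 113 with). The share of all genes with 1 direction in all 3 pairs was not computed. SRXN1 was at 99.3, 113.2 and 91.6 CPM without and 133.4, 112.1 and 108.9 CPM with 4sU, and its difference of 0.18 (SE 0.16) turned to -0.0068 without replicate 1. GCLC varied little, with 45.1, 41.7 and 38.0 CPM without 4sU and 41.5, 41.6 and 40.5 CPM with it. GCLM ranged from 93.0 to 122.8 CPM and NQO1 from 216.7 to 354.5 CPM over the same 6 libraries, with log2 differences of -0.07 (SE 0.17) and 0.20 (SE 0.17).

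**Figure D3:**
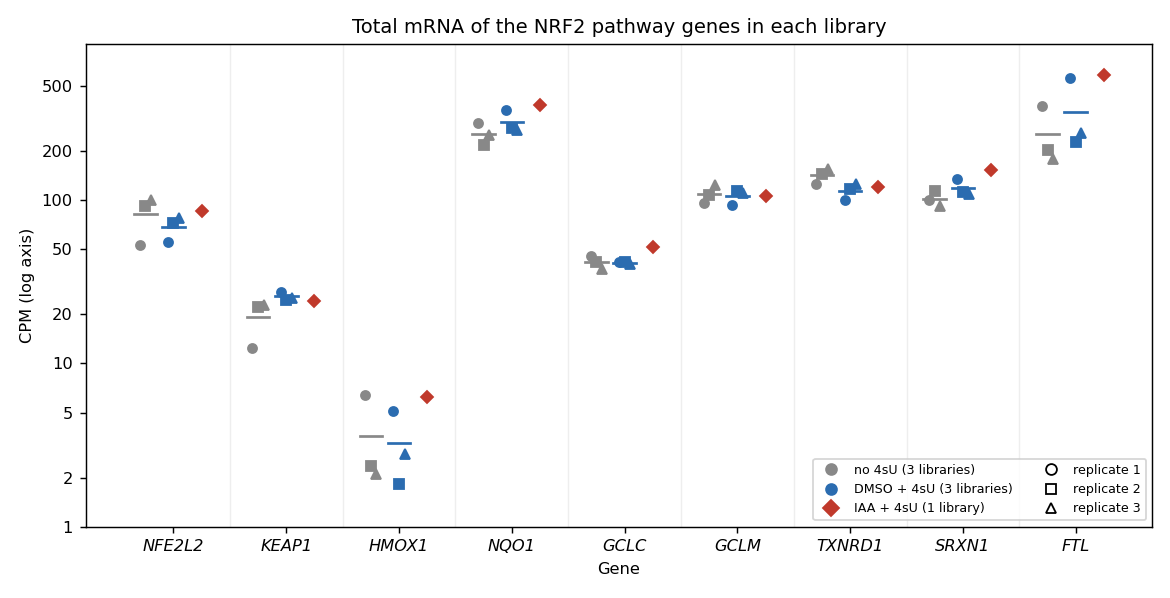
Total mRNA (CPM, log axis) of the 9 genes in each of 7 libraries, with bars at the means of the groups of 3. For HMOX1 and FTL the circles (replicate 1) lie above the squares and triangles with and without 4sU, and the IAA diamond lies near the circle of the DMSO 4sU group.

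HMOX1 and FTL differed between replicate numbers. HMOX1 was at 6.38, 2.37 and 2.11 CPM without 4sU and at 5.12, 1.83 and 2.79 CPM with DMSO and 4sU. FTL was at 376.9, 200.9 and 179.1 CPM without 4sU and at 555.2, 225.4 and 256.0 CPM with DMSO and 4sU. The log2 difference with 4sU was -0.10 (SE 0.36, limma adjusted p = 0.95) for HMOX1 and 0.38 (SE 0.35, limma adjusted p = 0.78) for FTL, and that of FTL was 0.59, 0.09 and 0.42 within replicate numbers 1, 2 and 3. With the replicate block the limma adjusted p was 0.82 for HMOX1 and 0.27 for FTL. For each gene the libraries of replicate number 1 were the highest of their groups. In log2(CPM + 1), replicate 1 exceeded the mean of replicates 2 and 3 by 1.10 without 4sU and by 0.90 with 4sU in HMOX1, and by 0.86 and 1.2 in FTL. Of the 9 genes these 2 differed by at least 0.5 in the same direction in both groups, against 6.9% of 11440 genes, of which 4.58% were higher and 2.32% lower in replicate 1. NFE2L2 was lower in replicate 1 by log2 differences of -0.95 and -0.42, GCLM by -0.38 and -0.27, and TXNRD1 by -0.37 and -0.27. NQO1 was higher by 0.22 and 0.38, GCLC differed by 0.06 and 0.01, and KEAP1 (-0.93 and 0.13) and SRXN1 (-0.16 and 0.27) changed sign between the groups. These differences between replicate numbers are a description, with 1 library per number and group. The threshold of 0.5 was chosen after the values were seen, so the count of 2 genes is no independent result.

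The pattern of total mRNA over the 7 libraries was compared with that of other genes by the root mean square difference of centred log2(CPM + 1), among 8838 genes whose range was at least 0.5. The 3 genes nearest to HMOX1 were ELOVL1 (0.108), CKMT1B (0.108) and RIN1 (0.113). CKMT1B has a near-identical copy, and its reads are uncertain. Among the others of the 9 genes that were ranked, FTL was nearest to HMOX1, at place 338 with 0.272, and NFE2L2 was at place 7904 with 0.792. The 3 genes nearest to NFE2L2 were E2F7 (0.0830), CEP290 (0.106) and SFMBT2 (0.108). CEP290 was at only 1.32 to 3.63 CPM and SFMBT2 at 0.470 to 1.47 CPM, so their patterns rest on few reads. TXNRD1 was at place 272 (0.217) and GCLM at place 311 (0.221). The other ranked genes of the 9 were farther, with KEAP1 at place 2638, SRXN1 at 3739, NQO1 at 5459, HMOX1 at 8615 and FTL at 8728. GCLC was not ranked. All genes share the depth and culture of these 7 libraries.

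JUN depletion was addressed by the IAA library, set against the 3 libraries with DMSO and 4sU. With 1 IAA library there is no replicate error on its side and no test. A gene was counted as changed where the IAA value lay outside the DMSO range and at least 1 log2 unit from the DMSO mean. In total mRNA 0 of the 9 genes were counted, against 0.211% of 11386 genes (0.141% higher and 0.0703% lower). In the conversion rate 0 of 8 were counted, against 11.4% of 7302 genes (5.44% higher and 5.98% lower). Values outside the DMSO range regardless of size were found in 6 of the 9 genes in total mRNA, against 41.4% of all genes. Of these 5 were above the range and 1 below, against 21.0% and 20.4% of all genes. In the rate 5 of 8 were outside, against 49.8%, with 3 above and 2 below, against 23.9% and 25.9%. JUN mRNA was counted as changed, with a log2 difference of 1.21.

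**Figure D4:**
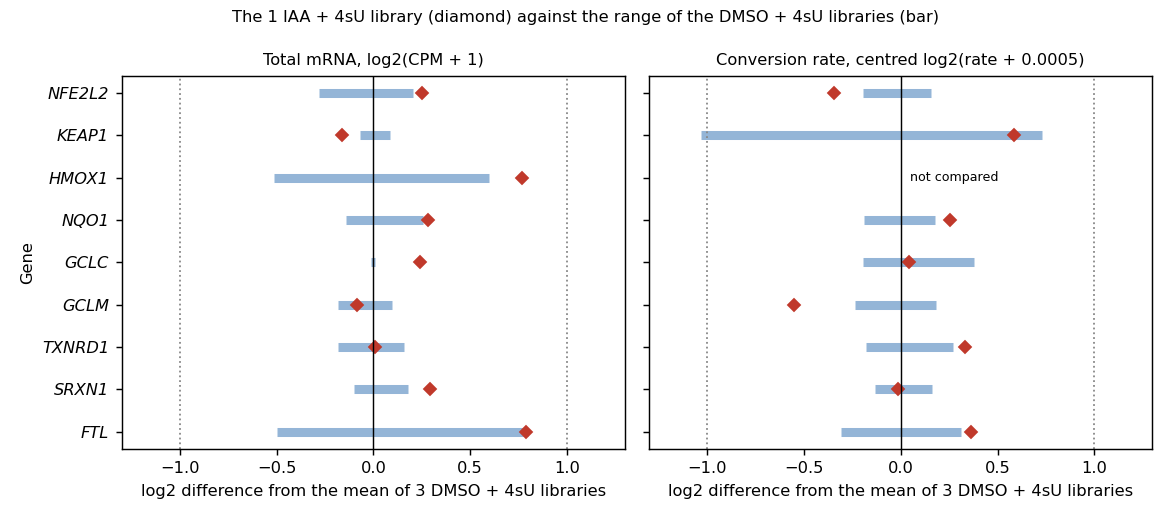
Difference of the IAA library (diamond) from the mean of the 3 DMSO 4sU libraries, with the range of those libraries (bar), in log2(CPM + 1) (left) and centred log2(rate + 0.0005) (right); dotted lines mark 1 log2 unit. No diamond passes the dotted lines, and the farthest are FTL at 0.79 and HMOX1 at 0.77 in total mRNA and KEAP1 at 0.59 (0.07 without DMSO replicate 3) and GCLM at -0.55 in the rate.

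The largest differences in total mRNA were those of HMOX1 and FTL, the genes that varied with replicate number. FTL was at 581.7 CPM in the IAA library, a log2 difference of 0.79 that lay within the DMSO range after TMM scaling, although the deposited value was above all 3 DMSO libraries. HMOX1 was at 6.23 CPM, a log2 difference of 0.77, above the DMSO range. Both differences lay mainly against the DMSO libraries of replicates 2 and 3. Against DMSO replicate 1 alone, the IAA value differed by -0.01 for FTL and 0.17 for HMOX1. Without replicate 1 the differences were 1.19 and 1.07. Each gene was then counted as changed, among 106 of 11227 genes in all. The IAA library as a whole was nearer to DMSO replicate 1 than to replicates 2 and 3, with median absolute log2 differences of 0.137, 0.268 and 0.213, and its replicate number is not known.

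GCLC, which hardly varied in the DMSO libraries, was at 51.7 CPM in the IAA library, above the 40.5 to 41.6 CPM of the DMSO libraries, a log2 difference of 0.24 with a DMSO SD of 0.013. That SD rests on 3 libraries of 813 to 999 reads, so the difference is not to be read as a multiple of it. The GCLC value was also above the 3 unlabelled libraries, which spanned 38.0 to 45.1 CPM. In deposited CPM, SRXN1 at 152.7 CPM, NQO1 at 381.2 CPM and FTL at 581.7 CPM were likewise above all 6 other libraries. The log2 differences of SRXN1 and NQO1 from the DMSO mean were 0.29 and 0.28. They were 0.11 and 0.02 from DMSO replicate 1 alone, and 0.38 and 0.41 from the mean of replicates 2 and 3. The share of all genes above all 6 other libraries was not computed. NFE2L2 at 85.4 CPM was above the DMSO range (0.25) and KEAP1 at 24.2 CPM was below it (-0.16). The NFE2L2 value was inside the range of the unlabelled libraries. GCLM at 105.3 CPM and TXNRD1 at 120.6 CPM lay inside the DMSO range.

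In the conversion rate, each library was centred on its median log2 value, because labelling differed between libraries. GCLM had the lowest rate in the IAA library relative to DMSO, at 0.155% against 0.167% to 0.282%, a centred log2 difference of -0.55. NFE2L2 was also lower, at 0.476%, with a centred difference of -0.34, although its rate itself was inside the DMSO range of 0.446% to 0.737%. FTL at 0.322% (0.37), TXNRD1 at 0.675% (0.33) and NQO1 at 0.169% (0.25) were higher than the centred DMSO range. The IAA rate of TXNRD1 was below that of DMSO replicate 1 (0.685%) before centring. KEAP1 at 0.731%, GCLC at 0.266% and SRXN1 at 0.202% were inside the centred range, with differences of 0.59, 0.04 and -0.01. The KEAP1 rate was above all 3 DMSO libraries before centring (highest 0.684%), and its difference rested on the DMSO library of replicate 3, being 0.07 without it, 0.74 without replicate 1 and 0.95 without replicate 2. When the rate above the unlabelled mean was multiplied by the CPM, as an amount of newly made mRNA, GCLM (-1.15) and FTL (1.35) passed the criterion of 1 log2 unit, and 2124 of 7302 genes did so in place of 834. HMOX1 was at 0.564% on 125 reads, between the DMSO libraries, and was not compared.

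The wider pathway was described with 92 genes in 7 lists, none of them among the 9. In total mRNA with against without 4sU, 0 of the 80 genes tested passed in either direction by limma, against 1.67% of all genes. In the conversion rate, 29 of 64 tested were higher with 4sU and 0 were lower, against 61.3% and 0.0685% of all genes, with a median log2 difference of 0.82 against 1.16 over all genes. The counts by list are read against the same 61.3%. NRF2 regulators such as CUL3 and the small MAF genes had 6 of 9 called and a median of 1.79. Genes of glutathione synthesis and use had 7 of 18 called (median 0.82), thioredoxin and peroxiredoxin genes 5 of 10 (0.93), and iron and heme genes 4 of 6 (0.76). The NADPH-supplying enzymes had 2 of 6 (0.57), detoxification and export genes 3 of 10 (0.46), and superoxide dismutases, catalase and sestrins 2 of 5 (0.30). Under IAA, 0 of 81 were counted as changed in total mRNA, against 0.211% of all genes, a share at which a list of this size gives no result about its genes. In the rate 5 of 64 were counted, 3 higher and 2 lower, against 5.44% and 5.98% of all genes.

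The gene with the highest labelled rate in each list was named by rule. TXNIP, which binds and inhibits thioredoxin, had 3.78%, 4.21% and 3.02% in the DMSO 4sU group and 3.98% after IAA, a rate above that of 99.3% of genes. SESN2, a stress-induced sestrin, had 1.72%, 1.19% and 1.51%, and SLC3A2, the heavy chain of the cystine transporter, 0.825%, 0.669% and 0.641%. These 3 genes passed in the rate, with limma adjusted p of 2.3e-05, 0.00015 and 0.00060. HMOX2, the constitutive heme oxygenase, had a mean of 0.405%, PGD, an enzyme of the pentose phosphate pathway, 0.236%, and the exporter ABCC1 0.302%. HMOX2, PGD and ABCC1 also passed in the rate, with limma adjusted p of 0.0015, 0.0091 and 0.023. BACH1, the repressor that competes with NRF2 at AREs, had 0.870%, 1.31% and 1.21% with 4sU, but 1 unlabelled library was at 3.61% and it did not pass (limma adjusted p = 0.25).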

How the data were processed

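SLAM-Seq libraries of MCF10A cells were analysed. The authors sequenced QuantSeq 3′ mRNA libraries and ran a Nextflow SLAM-Seq pipeline; hg19 is listed in the submitters' processing notes. The deposited table holds RefSeq transcripts in rows, each with 1 interval at its 3′ end. Its deposited values are conversion rates as a fraction, which are above 0 also without 4sU, and reads scaled to library size. The authors name the latter CPM, but as deposited it is a signal, since an interval is listed again for each transcript that uses it. Of the non-zero values 100% were whole multiples of 1 read (within 0.01 read), which gave the reads and library totals. Identifiers were matched to symbols through RefSeq (GRCh38.p14, names only; 97.7% of rows); gene coordinates are those of GENCODE for GRCh37. Rows of a gene with equal length and values were used once. Where a gene had several intervals (19.7% of genes), reads were summed and the rates of intervals with reads averaged. For 7 of the 9 genes the interval length was within 3 bases of an annotated 3′ UTR segment. The CPM are 3′-end reads, not divided by length, and levels were not ranked between genes. Coverage on T positions is not in the columns used, so the counting error of a rate is unknown.

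Libraries with DMSO and 4sU were compared with those without 4sU by limma (3.58.1, R 4.3.3; trended, robust variances). For total mRNA, log2(CPM + 1) was computed after TMM scaling in edgeR (4.0.16), for genes at 1 CPM or more in at least 3 of 6 libraries. Rates were log2(rate + 0.0005), where 3 or more of the 6 libraries had a non-zero rate and the gene averaged at least 200 reads. Benjamini-Hochberg adjusted p under 0.05 over all genes was the threshold. edgeR's quasi-likelihood test and DESeq2 (1.42.0) on recovered reads, other pseudocounts, filters and scalings, the replicate block and omitted replicates were alternatives. The paper describes the SLAM-Seq replicates as biological. Labels do not say whether these replicates are separate cultures, so p-values measure the spread between these samples. Replicate numbers pair the libraries in total mRNA (correlations of same-numbered deviations 0.39, 0.31 and 0.36 over 11440 genes) but not in the rates (0.0071, -0.013 and 0.0070). Fits were tested on simulated data.

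The genes and lists were chosen with earlier results of these data known. Named besides the 9 genes and JUN were, per pathway list, up to 3 genes past the threshold in total mRNA (there were 0) and the gene with the highest labelled rate, and the 3 genes nearest in pattern to HMOX1 and to NFE2L2. The comparison between replicate numbers and its threshold of 0.5 were chosen after the values were seen. Python 3.11.15, pandas 2.3.3 and numpy 2.4.6 were used.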

Additional observations from a re-analysis of the deposited data

How the results depend on the processing

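The conversion rates of the 8 tested genes stayed higher with 4sU under every alternative; 73 of 80 values kept their side of the threshold, and the 7 that lost it were those of KEAP1, NQO1 and GCLM under omitted replicates, and NQO1 with the replicate block (adjusted p = 0.059), although the numbers do not pair the rates. Over all genes the count past the threshold was 4483, 4089 with the block, and from 2764 to 3177 with 1 replicate left out. In total mRNA 0 of the 9 genes passed under any alternative; the lowest adjusted p was 0.057, for NFE2L2 without replicate 1, and SRXN1 changed sign there (from -0.0068 to 0.30 with 1 replicate left out). The count over all genes was 191, 205 with the replicate block, 415 with DESeq2 and from 28 to 486 with 1 replicate left out, with 486 without replicate 1. For IAA against DMSO, the count of genes outside the DMSO range and at least 1 log2 unit from its mean was, in total mRNA, 24, with 49 at a pseudocount of 0.5 CPM and from 13 to 106 with 1 DMSO library left out, 106 without replicate 1. Without TMM 28 genes were higher and 3 lower, against 16 and 8 with it. By the same criterion the count in the rate was 834, with 2545 without a minimum of reads and 2124 for the rate above the unlabelled mean multiplied by CPM, and from 951 to 1011 with 1 DMSO library left out. Without centring 523 genes were higher and 322 lower, against 397 and 437 with it. The causes were not tested. No paired analysis was possible because, on the IAA side, 1 library without a known replicate number remained. Depth limits HMOX1 most, with 40 to 129 reads per library.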
